A study of Mus musculus with 12 samples.

Results

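The delayed rectifier potassium channel genes of the mouse heart were examined in atria and ventricles of a mouse model of cardiac myotonic dystrophy type 1. The group was chosen by gene symbol and holds 9 of the 51734 gene symbols in the table: the KCNQ pore genes Kcnq1 and Kcnq5, the ERG pore genes Kcnh2, Kcnh6 and Kcnh7, and the KCNE accessory subunit genes Kcne1, Kcne2, Kcne3 and Kcne4. Delayed rectifier channels open during the cardiac action potential and carry the outward potassium current that returns the membrane to its resting voltage. The slow component, IKs, flows through tetramers of KCNQ1 joined by the single-pass subunit KCNE1, and the rapid component, IKr, flows through tetramers of KCNH2, the channel known as ERG1 or hERG. In human hearts both currents help to set the QT interval, and loss of KCNQ1, KCNH2 or KCNE1 function is a textbook cause of long QT syndrome, whereas in the adult mouse ventricle repolarization relies mainly on other potassium currents.

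Poly(A) RNA-Seq libraries were made from the atria and the ventricles of 3 CUG960 +dox mice (mice V119, V120 and V123) and 3 MHCrtTA +dox controls (mice V327, V333 and V334), 12 libraries in all. CUG960 mice were FvB mice homozygous for TREDT960I, a tetracycline-responsive transgene with 960 interrupted CTG repeats in the last exons of human DMPK, and hemizygous for MHCrtTA, in which the α-myosin heavy chain promoter limits the doxycycline-dependent activator to cardiomyocytes. Controls were FvB mice hemizygous for MHCrtTA alone, so they carried the activator and received the same doxycycline (dox) chow from postnatal day 1 to 10 weeks of age. All 12 libraries are labelled female. Total counts per library were between 116127966 and 160676189, with a median of 135817118.

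Chamber identity was checked first. In control hearts 8 of 8 atrial cardiomyocyte markers were higher in atria and 6 of 6 ventricular cardiomyocyte markers were lower. The ventricular markers summed to between 22.6 and 63.7 CPM in the atria, highest in the control V327, and to between 13860 and 17440 CPM in the ventricles, and the atrial markers summed to between 141.9 and 376.5 CPM in the ventricles and to between 22130 and 29310 CPM in the atria. The libraries therefore carried the chamber that their labels give, and the 9 channel genes were read against that background. The control atrium V334 stood apart in blood cell markers. Its 5 erythroid markers, led by Hba-a1 there and by Hbb-bs over all libraries, summed to 2766 CPM against 322.9 to 513.8 CPM in the other atria, and its 9 leukocyte markers, led by Lyz2, summed to 637 CPM against 288.7 to 373 CPM, so the channel gene calls in atria are also given without V334. The CUG960 ventricle V123 stood apart in atrial markers, with 55.9 CPM of Myl7 against 0.192 and 0.304 CPM in V119 and V120, 86.3 CPM of Myl4 against 4.36 and 6.13 CPM, and 18.6 CPM of Sln against 0.213 and 0.341 CPM. Its Myl7, Myl4 and Sln levels were also above those of the 3 control ventricles, of which V334 was the highest, and some results in CUG960 ventricles are also given without V123. In these bulk libraries, fewer cells of a type and less RNA per cell cannot be told apart.

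The 9 genes lay on 6 chromosomes of the GRCm38 build. Kcnq1 was at chr7:143106362-143427042 (+), Kcne3 at chr7:100176502-100184869 (+), Kcnq5 at chr1:21398403-21961942 (−), Kcne4 at chr1:78816758-78820028 (+), Kcnh2 at chr5:24319589-24351604 (−), Kcnh6 at chr11:106008124-106034549 (+) and Kcnh7 at chr2:62693414-63184287 (−). Kcne1, at chr16:92345982-92359468 (−), and Kcne2, at chr16:92292389-92298129 (+), were on the same chromosome and pointed toward each other. Exons of Kcnq1 shared 121 bases with the antisense RNA Kcnq1ot1, which had between 86 and 356 counts per library, and exons of Kcnh7 shared 696 bases with the opposite-strand gene Gca, which had between 1422 and 4559 counts. The libraries were stranded but the strand setting of the counting was not given in the sources used here, so reads of these overlapping exons cannot be assigned to a strand with certainty, and Kcnh7 values are uncertain to that extent.

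The 3 ERG genes and Kcne4 are shown with the 250 bases before their RefSeq start (GRCm38.p6, gene strand, 5′ to 3′), because the ERG genes were all higher in atria and Kcne4 was lower. Capitals mark the GC box GGGCGG on either strand. The windows are chr5:24329592-24329841 (−) for Kcnh2, chr11:106007898-106008147 (+) for Kcnh6, chr2:63184288-63184537 (−) for Kcnh7 and chr1:78816661-78816910 (+) for Kcne4. The Kcnh2 window precedes the start of a shorter transcript that lies inside the gene.
Kcnh2: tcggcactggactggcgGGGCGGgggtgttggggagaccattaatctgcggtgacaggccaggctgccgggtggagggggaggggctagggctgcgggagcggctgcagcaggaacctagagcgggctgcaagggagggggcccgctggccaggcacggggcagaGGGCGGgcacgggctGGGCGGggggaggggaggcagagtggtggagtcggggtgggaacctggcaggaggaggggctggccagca
Kcnh6: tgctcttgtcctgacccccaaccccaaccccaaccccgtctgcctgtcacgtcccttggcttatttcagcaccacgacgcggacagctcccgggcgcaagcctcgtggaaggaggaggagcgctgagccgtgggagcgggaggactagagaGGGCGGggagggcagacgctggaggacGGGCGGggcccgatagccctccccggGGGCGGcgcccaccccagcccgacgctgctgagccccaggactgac
Kcnh7: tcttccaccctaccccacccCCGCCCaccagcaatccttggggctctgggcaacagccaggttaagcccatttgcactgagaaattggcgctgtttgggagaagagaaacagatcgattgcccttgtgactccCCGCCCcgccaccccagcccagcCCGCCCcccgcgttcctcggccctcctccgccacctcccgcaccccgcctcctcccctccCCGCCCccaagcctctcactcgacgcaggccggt
Kcne4: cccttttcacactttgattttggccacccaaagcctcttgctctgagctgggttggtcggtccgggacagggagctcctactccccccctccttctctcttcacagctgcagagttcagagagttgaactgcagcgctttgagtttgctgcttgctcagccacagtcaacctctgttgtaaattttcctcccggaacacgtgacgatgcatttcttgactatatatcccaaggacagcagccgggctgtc
RefSeq promoters were matched for 7 of the 9 genes, and Kcnq1 and Kcne1 had no entry. The GC box occurred 3 times before Kcnh2, 3 times before Kcnh6 and 4 times before Kcnh7, and was not found before Kcne4. Of the windows not printed, the 2 of Kcne3, which was also lower in control atria, held 0 and 2 GC boxes (GC content 46.8% and 58%), those of Kcne2 held 1 and 0, and those of Kcnq5, lower in atria as well, held none. The GC box was present in 32.7% of 32851 windows of the same length. The GC content was 73.6% for Kcnh2, 70.8% for Kcnh6, 67.6% for Kcnh7 and 53.2% for Kcne4, against a median of 52.4% over all windows. The TATA box TATAAA (12.4% of windows), the T-box half-site AGGTGT (11.8%) and the GATA site AGATAA (9.99%) were not found in these 4 windows. All motifs were searched on both strands, no match overlapped another, and a match is a description of the sequence only.

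Levels are given as CPM, gene counts scaled to a common library size by edgeR's TMM factors, and levels of different genes are compared per kilobase of exon. Kcnh2 was the most abundant of the 9 genes in every group, at 34.1 ± 2.45 CPM per kb in control atria and 15.4 ± 1.53 in control ventricles (mean ± SD, n = 3 mice, as for all means here). Kcnq1 was second, at 16.2 ± 0.557 and 10.8 ± 0.178 CPM per kb. Its libraries did not overlap with those of Kcnh2 in any group. The third place differed by chamber. It was held by Kcnh7 in control atria (0.531 ± 0.0578 CPM per kb), where Kcne4 at 0.379 ± 0.0815 lay just below it without overlap (highest library 0.463 for Kcne4, lowest 0.466 for Kcnh7), and by Kcne4 in control ventricles (1.36 ± 0.126 CPM per kb), well above Kcne1 at 0.209 ± 0.0294 and Kcne3 at 0.209 ± 0.0126, whose order depended on the length used (0.212 and 0.281 CPM per kb of the longest coding transcript). Below these, the control ventricles held Kcnq5 at 0.0456 ± 0.00794, Kcnh7 at 0.0381 ± 0.0189 and Kcnh6 at 0.0182 ± 0.00753 CPM per kb, and Kcnh7 overlapped both of its neighbours in that order. The control atria held Kcne3 at 0.0904 ± 0.00614, Kcnh6 at 0.0442 ± 0.00243, Kcne1 at 0.0292 ± 0.00815 and Kcnq5 at 0.0206 ± 0.00296 CPM per kb, and the last pair overlapped. Kcne2, whose protein can join several cardiac potassium channels, was last everywhere: it had 3 counts in all, in 2 of the 12 libraries, 2 counts in the control V334 ventricle and 1 in the CUG960 V119 ventricle. A count of 0 in a library allows a level of up to between 0.0172 and 0.0285 CPM (3 counts, counting error only). Kcne2 therefore entered no test, and the other 8 genes were tested in each comparison.

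**Figure D1:**
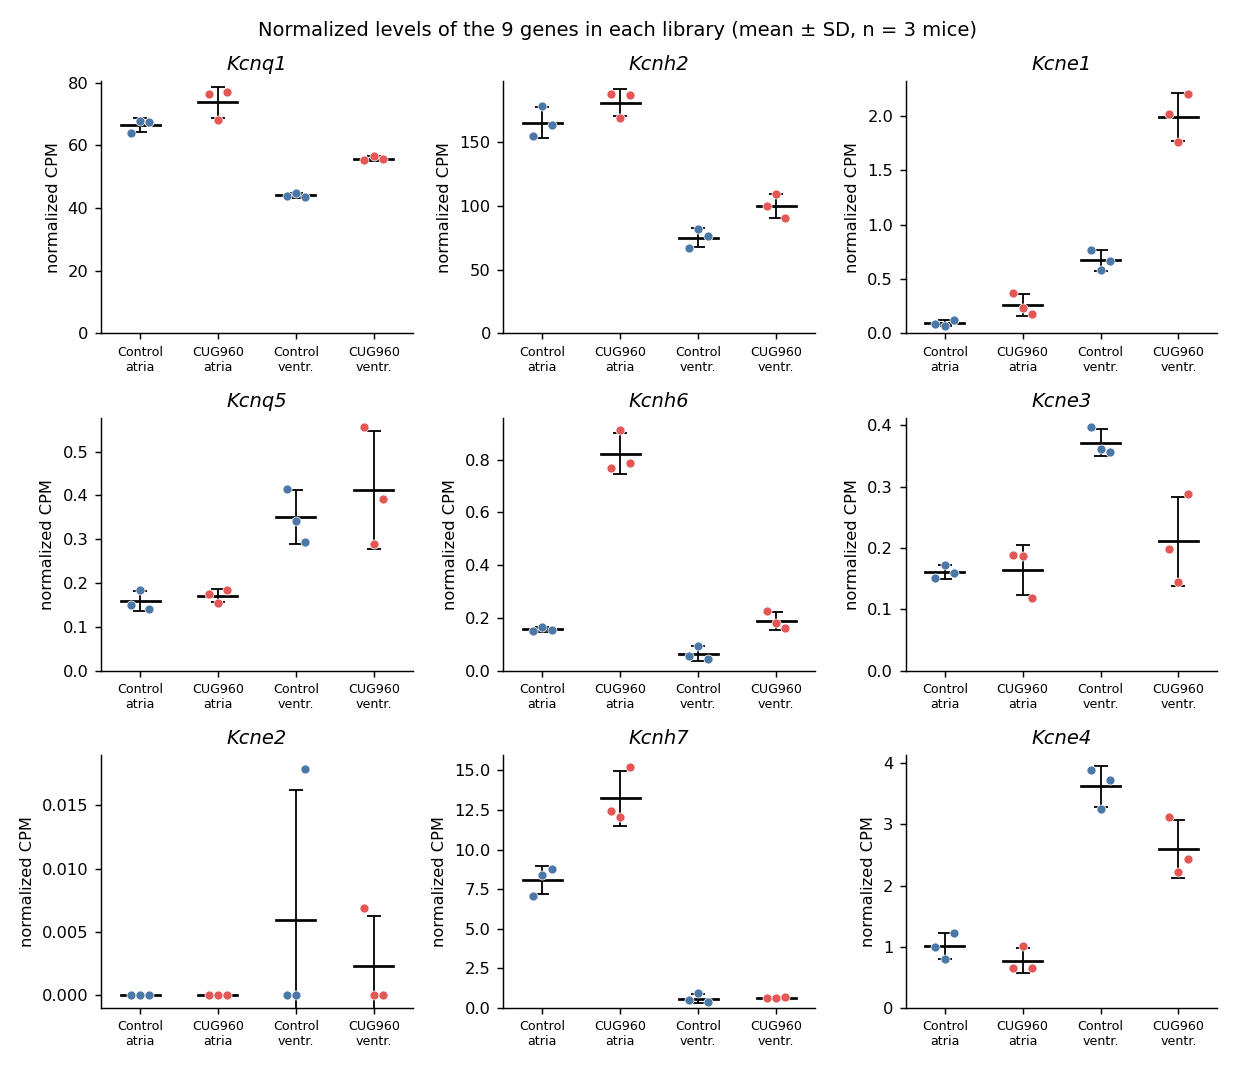
Normalized CPM (vertical axes, linear, different scale in each panel) of the 9 genes in the 12 libraries; points are libraries, black lines are group means and bars are SD (n = 3 mice). Kcne1, Kcnh6 and, in atria, Kcnh7 show CUG960 libraries (red) above all controls (blue), and Kcne2 is at 0 in 10 libraries.

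The first comparison asked how the CUG960 transgene changed the channel genes within each chamber. A gene was called when its edgeR quasi-likelihood P value, Benjamini-Hochberg adjusted over all genes tested, was under 0.05 and its level differed by 1.5-fold or more. In the atria 3 of the 8 tested genes were called, all of them higher in CUG960 (Kcnh6, Kcnh7 and Kcne1), where 5.49% of all genes were called and 3.37% were called higher. In the ventricles 1 of 8 was called, Kcne1, again higher, where 4.75% of all genes were called and 3% were called higher. None of the 8 was called lower in either chamber, where 2.12% of all genes in atria and 1.76% in ventricles were. The channel genes were chosen with earlier results of these data known, and these shares were not tested against each other.

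Kcne1, the KCNE1 subunit that slows the opening of KCNQ1 channels and makes them the IKs channel, rose in both chambers. In the ventricles the controls had 0.768 CPM (V327), 0.579 CPM (V333) and 0.670 CPM (V334), and the CUG960 mice had 2.02 CPM (V119), 1.76 CPM (V120) and 2.20 CPM (V123). The lowest CUG960 ventricle thus stood above the highest control by more than the range of the controls. The rise was 2.96-fold (log2 fold change 1.57, SE 0.19, edgeR adjusted P = 0.00161) and rested on between 61 and 295 counts per library. It held in all 6 fits that left out 1 mouse (log2 1.49 without V123, adjusted P = 0.0076). In the atria Kcne1 was far lower, at 0.0917 CPM, 0.0689 CPM and 0.121 CPM in controls V327, V333 and V334 and 0.370 CPM, 0.232 CPM and 0.177 CPM in CUG960 V119, V120 and V123. The groups did not overlap, but the CUG960 atria were spread over a range larger than the whole control range. The rise was 2.76-fold (log2 fold change 1.46, SE 0.39, edgeR adjusted P = 0.0415), on only 12 to 53 counts per library. This call was lost in 5 of the 6 fits that left out 1 mouse, with edgeR adjusted P values of 0.147 without V119, 0.0931 without V120, 0.101 without V327, 0.141 without V333 and 0.0662 without V334, and held without V123 at 0.0393.

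Kcnh6, which codes for the ERG2 channel and is best known from nervous tissue, had the largest fold change of the 8 tested genes in the atria. Controls V327, V333 and V334 had 0.151 CPM, 0.167 CPM and 0.153 CPM, and CUG960 V119, V120 and V123 had 0.768 CPM, 0.913 CPM and 0.787 CPM. Every CUG960 atrium was above every control with a wide gap between the groups. The change was 5.22-fold (log2 fold change 2.38, SE 0.22, edgeR adjusted P = 0.000557), and leaving out single mice kept it between 2.30 and 2.43 on the log2 scale, called each time (2.37 without V334, adjusted P = 0.00253). In the ventricles the controls had 0.0542 CPM, 0.0950 CPM and 0.0446 CPM on 5 to 10 counts, and the CUG960 mice had 0.226 CPM, 0.181 CPM and 0.160 CPM on 20 to 33 counts. The groups again did not overlap. The log2 fold change of 1.55 (SE 0.44) missed the threshold at an edgeR adjusted P of 0.0541, and it passed at 0.00764 when all 12 libraries shared 1 estimate of the spread. Even at its highest, in CUG960 atria, Kcnh6 was 0.608 ± 0.0966% of the summed ERG level per kb, against 0.128 ± 0.00309% in control atria.

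Kcnh7, which codes for the ERG3 channel, rose in the atria. Controls V327, V333 and V334 had 7.09 CPM, 8.37 CPM and 8.78 CPM, and CUG960 V119, V120 and V123 had 12.4 CPM, 12.03 CPM and 15.2 CPM. The groups did not overlap, and V123 was the highest library. The rise was 1.64-fold (log2 fold change 0.71, SE 0.12, edgeR adjusted P = 0.00764), and it stayed past the threshold without each mouse in turn (log2 0.78 without V334, adjusted P = 0.0145). The ventricular levels were between 0.348 and 0.902 CPM in controls and between 0.587 and 0.680 CPM in CUG960 mice, which fell inside the control range. The log2 fold change there was 0.11 (SE 0.34, edgeR adjusted P = 0.879) and was 0.04 without V123 (adjusted P = 0.967), too imprecise to set against the atrial value. Gca, on the opposite strand of Kcnh7, had 3764 to 4559 counts in control atria and 3075 to 3739 in CUG960 atria. In ventricles it had 1422 to 1492 counts in controls and 2527 to 3263 in CUG960 mice. These counts were not scaled for library size, and depth was lower in CUG960 atria and higher in CUG960 ventricles than in controls. The part of Gca in the Kcnh7 values was not tested.

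Kcnh2 and Kcnq1, the main pore genes, were higher in CUG960 ventricles by amounts under the fold change limit. Kcnh2 had 66.8 CPM, 81.4 CPM and 76.0 CPM in the control ventricles V327, V333 and V334 and 99.6 CPM, 109 CPM and 90.2 CPM in CUG960 V119, V120 and V123. Its log2 fold change was 0.42 (SE 0.10, edgeR adjusted P = 0.029). Kcnq1 had 44.0 CPM, 44.9 CPM and 43.4 CPM in the control ventricles and 55.2 CPM, 56.6 CPM and 55.6 CPM in the CUG960 ventricles. Its replicates were the tightest of the 8 genes, and its log2 fold change was 0.34 (SE 0.07, edgeR adjusted P = 0.0126). Neither pair of groups overlapped. Without a fold change limit, 3 of the 8 genes passed in ventricles (Kcnq1, Kcnh2 and Kcne1), against 9.94% of all genes, but the edgeR adjusted P of Kcnq1 was 0.054 without V123 and 0.0641 without V327, and that of Kcnh2 was 0.0769 without V119, 0.0956 without V120, 0.111 without V327 and 0.0573 without V334. In the atria Kcnq1 differed by 0.15 (SE 0.07, edgeR adjusted P = 0.179), with controls from 63.8 to 67.9 CPM and CUG960 mice from 68.0 to 76.9 CPM, and Kcnh2 by 0.13 (SE 0.08, adjusted P = 0.291), with overlapping groups.

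Kcne4, whose protein inhibits KCNQ1 currents when the 2 are expressed together, and Kcne3, which holds KCNQ1 channels open in epithelia, did not pass the threshold. In ventricles Kcne4 had 3.90 CPM, 3.25 CPM and 3.73 CPM in controls V327, V333 and V334 and 3.13 CPM, 2.22 CPM and 2.43 CPM in CUG960 V119, V120 and V123. The CUG960 values lay below the controls without overlap, and the log2 fold change was -0.48 (SE 0.16, edgeR adjusted P = 0.0966; DESeq2 gave an adjusted P of 0.0467). Ventricular Kcne3 had 0.398 CPM, 0.361 CPM and 0.357 CPM in controls and 0.199 CPM, 0.145 CPM and 0.288 CPM in CUG960 mice, also without overlap, for a log2 fold change of -0.82 (SE 0.34, edgeR adjusted P = 0.162). Without V123 that log2 fold change was -1.11 (edgeR adjusted P = 0.117). In atria the log2 fold changes were -0.39 (SE 0.25) for Kcne4 and 0.03 (SE 0.31) for Kcne3, with overlapping groups. Kcnq5, a KCNQ pore gene best known from neurons and muscle, overlapped in both chambers, with log2 fold changes of 0.11 (SE 0.29) in atria and 0.24 (SE 0.33) in ventricles on 22 to 81 counts per library. Counting whichever genes did not overlap between genotypes gave 4 of 8 in atria (Kcnh7, Kcnq1, Kcnh6 and Kcne1, all higher), where 35.7% of all genes did not overlap, and 6 of 8 in ventricles (Kcnq1, Kcnh2, Kcnh6 and Kcne1 higher, Kcne4 and Kcne3 lower), where 31.2% did not.

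**Figure D2:**
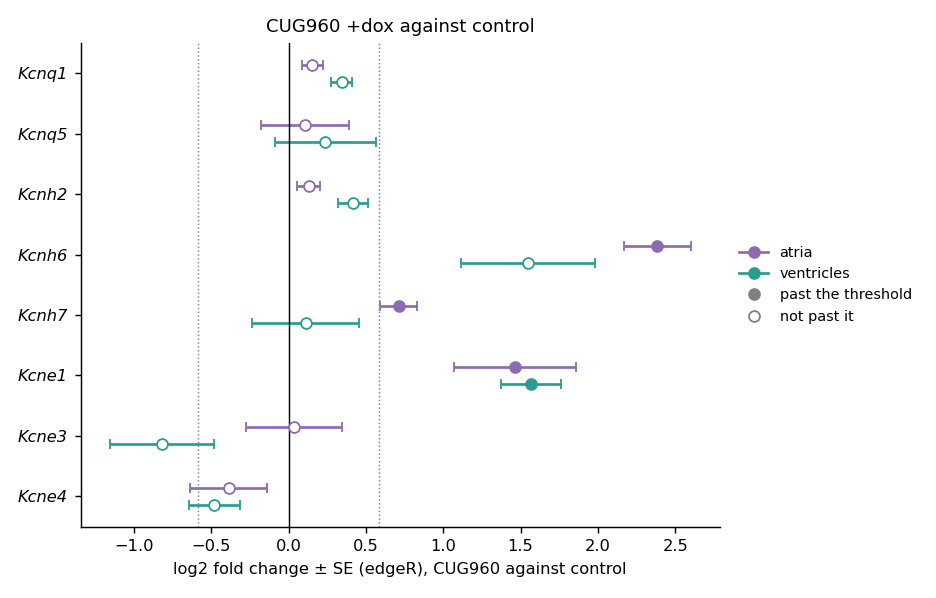
Log2 fold change of CUG960 against control (horizontal axis, edgeR, bars are SE, 3 mice per group) of the 8 tested genes in atria (purple) and ventricles (green); filled points passed the threshold and dotted lines mark a fold change of 1.5. Kcne1 is filled in both chambers, Kcnh6 and Kcnh7 in atria.

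The makeup of the summed message of Kcne1, Kcne2, Kcne3 and Kcne4 moved with these changes. The related gene Kcne1l was outside the group and is left out of the KCNE sum and shares. Its mean was 0.41 CPM in control and 0.33 CPM in CUG960 atria, and 0.18 and 0.30 CPM in ventricles. No level per kb was taken for it, so the shares describe the KCNE genes of the group only. Kcne1 was 0.183%, 0.129% and 0.228% of the Kcnq1 level per kb in the control atria V327, V333 and V334 and 0.617%, 0.433% and 0.292% in the CUG960 atria V119, V120 and V123. In ventricles it was 2.22%, 1.64% and 1.96% in controls and 4.67%, 3.96% and 5.04% in CUG960 mice. Neither chamber's groups overlapped, and an exact permutation test of 3 against 3 cannot give a p-value under 0.1. The summed KCNE level overlapped between genotypes, at 1.79 ± 0.164 CPM per kb in control and 1.72 ± 0.231 in CUG960 ventricles, and 0.499 ± 0.0865 and 0.462 ± 0.095 in atria. Within that sum Kcne1 was 11.7 ± 0.625% in control and 36.3 ± 3.19% in CUG960 ventricles, and 5.78 ± 0.634% and 17.5 ± 6.19% in atria. Kcne4 was the largest part of the sum in all 12 libraries, at 76.4 ± 0.545% in control and 56.8 ± 4.65% in CUG960 ventricles and at 75.7 ± 3.49% and 62.6 ± 8.5% in atria. Kcnq1 was 70.3 ± 6.76% of the Kcnh2 level per kb in control and 66.6 ± 5.91% in CUG960 ventricles, which overlapped, and 47.8 ± 2.17% and 48.4 ± 0.486% in atria.

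**Figure D3:**
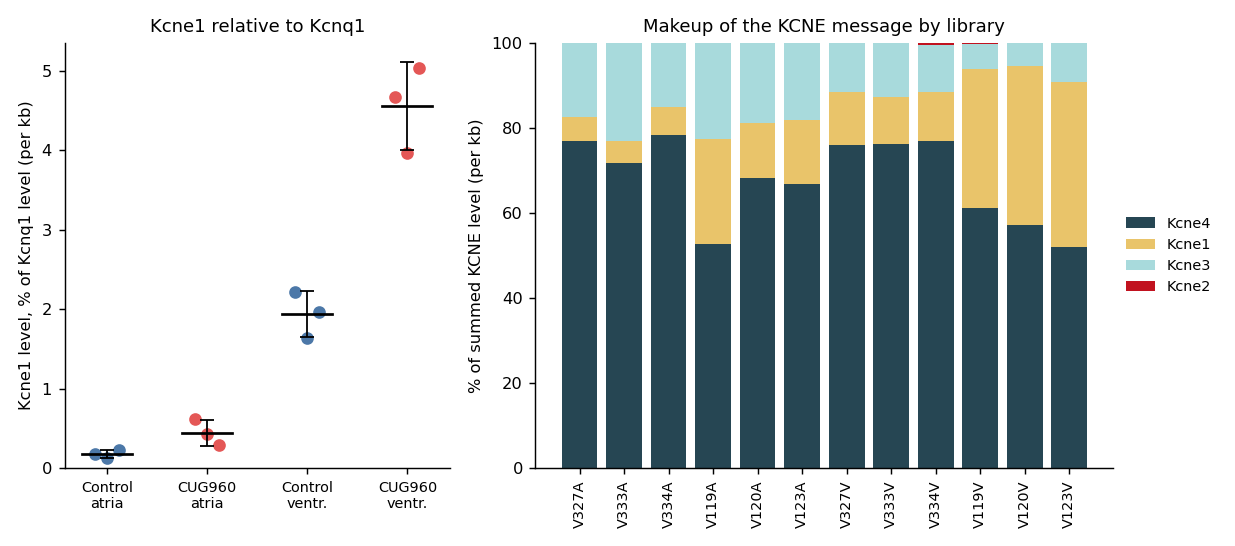
Left, the Kcne1 level as a percentage of the Kcnq1 level per kilobase of exon (vertical axis, linear) in each library, with group mean and SD (n = 3 mice). Right, the share of Kcne1, Kcne2, Kcne3 and Kcne4 in their summed level per kilobase in each library, with Kcne1l left out (A, atria; V, ventricles; V327, V333 and V334 are controls); Kcne1 is 36.3 ± 3.19% of the sum in the 3 CUG960 ventricles and 11.7 ± 0.625% in the 3 control ventricles.

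The second comparison set atria against ventricles within each genotype, using both tissues of the same mice. The main fits did not pair the libraries by mouse, and the mouse as a replicate block was an alternative. In control hearts all 8 tested genes were called, where 34.9% of all genes were called, and the groups of all 8 did not overlap, where 64.6% of all genes did not. The pore gene Kcnq1 and the 3 ERG genes were higher in atria (18.3% of all genes), and Kcnq5 and the KCNE genes Kcne1, Kcne3 and Kcne4 were lower (16.6% of all genes). In CUG960 hearts 6 of 8 were called (33.6% of all genes), Kcnh2, Kcnh6 and Kcnh7 higher (17.2% of all genes) and Kcnq5, Kcne1 and Kcne4 lower (16.4%) in atria, and 7 of 8 did not overlap (62.6% of all genes), the exception being Kcne3. Markers of other cells moved with the chambers too. In control atria 8 of 10 smooth muscle and pericyte markers were lower (Myh11 6.07-fold and Rgs5 5.45-fold) and 1 was higher (Cnn1 13.3-fold). There 6 of 8 fibroblast markers (Dcn 1.72-fold) and 6 of 9 leukocyte markers (Lyz2 3.52-fold) were higher. The Lyz2 value includes the atrium V334, at 395 CPM against 162 CPM in V327 and 128 CPM in V333. Of 5 erythroid markers 1 was lower in control atria, with a list median of -0.88 on the log2 scale. The atrium V334, high in erythroid markers, is part of that comparison. Of 7 conduction markers tested, 2 were higher and 4 lower. In CUG960 atria 7 of 10 smooth muscle and pericyte markers were lower and 2 higher, and 5 of 5 erythroid markers were lower (list median -2.25). There 3 of 6 neuron and Schwann cell markers and 3 of 6 adipocyte markers were higher. The part of these cells in the chamber differences of the channel genes was not tested.

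Kcnh7 had the largest chamber difference of the 8 genes. Its control atria had 7.09 to 8.78 CPM and its control ventricles 0.488 CPM (V327), 0.902 CPM (V333) and 0.348 CPM (V334), so every atrium was well above every ventricle. The difference was 13.9-fold in controls (log2 3.80, SE 0.30, edgeR adjusted P = 1.72e-05) and 21.0-fold in CUG960 hearts (log2 4.39, SE 0.14, adjusted P = 7.09e-08), and log2 4.36 without V123. Gca, which shares exon bases with Kcnh7 on the opposite strand, was also higher in control atria (3764 to 4559 unscaled counts) than in control ventricles (1422 to 1492 unscaled counts). Its part in this difference was not tested. Kcnh7 made up 1.53 ± 0.13% of the summed ERG level per kb in control atria and 0.243 ± 0.103% in control ventricles, and 2.26 ± 0.232% and 0.2 ± 0.035% in CUG960 hearts. Kcnh2 was 2.20-fold higher in control atria (log2 1.14, SE 0.09, edgeR adjusted P = 1.71e-05), at 154 CPM, 178 CPM and 163 CPM, than in the ventricles of the same mice, and 1.79-fold higher in CUG960 atria (log2 0.84, SE 0.09, adjusted P = 4.22e-05). Kcnh6 was higher in atria by 1.27 on the log2 scale in controls (SE 0.40, edgeR adjusted P = 0.025) and by 2.10 in CUG960 hearts (SE 0.25, adjusted P = 0.000101). The control call on Kcnh6 rested on few counts and was lost without V327 (edgeR adjusted P = 0.118), without V334 (adjusted P = 0.13), with DESeq2 (adjusted P = 0.109) and in edgeR with no filter on low counts (adjusted P = 0.0583).

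Kcne1 had the largest difference in the other direction. It was 7.15-fold lower in control atria than in control ventricles (log2 -2.84, SE 0.31, edgeR adjusted P = 0.00011) and 7.73-fold lower in CUG960 atria (log2 -2.95, SE 0.28, adjusted P = 2.31e-05). Without V123 the CUG960 difference was -2.66 on the log2 scale. Even the highest CUG960 atrium, V119 at 0.370 CPM, was below the lowest control ventricle, V333 at 0.579 CPM. Kcne4 was 3.61-fold lower in control atria (log2 -1.85, SE 0.19, edgeR adjusted P = 6.7e-05), at 0.995 CPM, 0.798 CPM and 1.23 CPM, and 3.40-fold lower in CUG960 atria (log2 -1.76, SE 0.23, adjusted P = 0.000176), at 0.657 CPM, 1.003 CPM and 0.647 CPM. Kcnq5 was 2.21-fold lower in control atria (log2 -1.15, SE 0.29, edgeR adjusted P = 0.0104) and 2.43-fold lower in CUG960 atria (log2 -1.28, SE 0.33, adjusted P = 0.00896). These calls on Kcnq5 were lost without V327 (edgeR adjusted P = 0.0845) in controls and without V119 (adjusted P = 0.0733) in CUG960 mice.

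Kcnq1 and Kcne3 differed by chamber in controls and were not called in CUG960 hearts. Kcnq1 was 1.5-fold higher in control atria (log2 0.59, SE 0.06, edgeR adjusted P = 6.16e-05), at the fold change limit, and fell under that limit without V334 (log2 0.56), with DESeq2 (log2 0.58) and with RLE size factors in edgeR (log2 0.57). In CUG960 hearts it was 1.31-fold higher (log2 0.39, SE 0.07, edgeR adjusted P = 0.00143) without overlap. Kcne3 was 2.31-fold lower in control atria (log2 -1.21, SE 0.27, edgeR adjusted P = 0.00495), at 0.151 CPM, 0.172 CPM and 0.159 CPM, and its CUG960 chambers overlapped (log2 -0.36, SE 0.37, adjusted P = 0.444, and 0.12 without V123). An interaction term, fitted over the 12 libraries without pairing by mouse, tested whether the CUG960 change differed between chambers. None of the 8 genes was called by edgeR, where 1.38% of all genes were called, and DESeq2, which gave no adjusted P for Kcne3, called 0 of the others. At an unadjusted P under 0.05 there were 2 of 8, Kcnq1 and Kcnh2 (12.3% of all genes), and edgeR adjusted P values of the 8 ranged from 0.394 to 0.957. The change in ventricles minus that in atria was 0.19 (SE 0.08) for Kcnq1, 0.29 (SE 0.13) for Kcnh2, -0.84 (SE 0.43) for Kcnh6, -0.60 (SE 0.34) for Kcnh7, 0.10 (SE 0.44) for Kcne1 and -0.85 (SE 0.45) for Kcne3 on the log2 scale. A call in 1 chamber and not in the other, as for Kcnh6 and Kcnh7, was therefore not shown to be a difference between chambers.

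**Figure D4:**
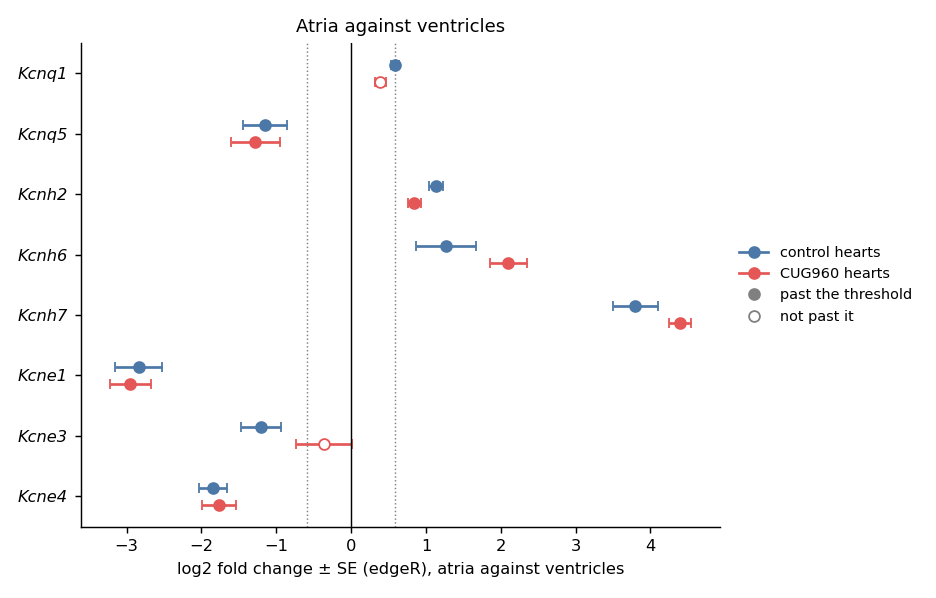
Log2 fold change of atria against ventricles (horizontal axis, edgeR, bars are SE, 3 mice per group) of the 8 tested genes in control (blue) and CUG960 (red) hearts; filled points passed the threshold and dotted lines mark a fold change of 1.5. The ERG genes lie to the right and the KCNE genes and Kcnq5 to the left in both genotypes.

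Other genes of the pathway were taken from 4 lists, whose counts stand beside 3.37% of all genes called higher and 2.12% called lower in atria, and 3% and 1.76% in ventricles. The lists were chosen with earlier results of these data known, so these counts do not show an excess. Of 9 other KCNQ, EAG-family and KCNE genes, 4 were tested in atria and 3 in ventricles, and 1 was called, Kcnh1, the ether-à-go-go pore gene, lower in CUG960 atria. Kcnh1 had 0.419 CPM, 0.546 CPM and 0.363 CPM in control atria and 0.244 CPM, 0.122 CPM and 0.140 CPM in CUG960 atria, without overlap (log2 fold change -1.39, SE 0.34, edgeR adjusted P = 0.0296). The call was lost without V120, V123, V327 or V333, at edgeR adjusted P values from 0.0598 to 0.104. The list's median log2 fold change was -0.03 in atria and 0.33 in ventricles, beside medians of all genes tested of -0.01 in each.

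Of the 16 partners and regulators of the KCNQ1-KCNE1 channel, such as the anchoring protein Akap9 and protein kinase A, all were tested, 1 was higher in CUG960 atria and none was called in ventricles. The gene was Fhl2, which codes for a LIM-domain protein of the cardiomyocyte sarcomere. Fhl2 had 72.5 CPM, 67.5 CPM and 73.2 CPM in control atria and 152 CPM, 142 CPM and 160 CPM in CUG960 atria. The groups were far apart (log2 fold change 1.09, SE 0.07, edgeR adjusted P = 7.62e-05). In ventricles Fhl2 was near 1000 CPM in both genotypes, with a log2 fold change of 0.15 (SE 0.10, edgeR adjusted P = 0.379). The median of the list was 0.11 in atria and 0.09 in ventricles on the log2 scale.

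Of the 17 factors for folding, trafficking and degradation of hERG, Hsp90aa1, a cytosolic chaperone that matures the channel protein, was lower in CUG960 hearts in both chambers, and no other factor was called. It had 378 CPM, 329 CPM and 454 CPM in control atria and 200 CPM, 293 CPM and 195 CPM in CUG960 atria (log2 fold change -0.76, SE 0.17, edgeR adjusted P = 0.0246). In ventricles it had 330 CPM, 294 CPM and 322 CPM in controls and 181 CPM, 214 CPM and 214 CPM in CUG960 mice (log2 fold change -0.63, SE 0.09, adjusted P = 0.00315). The groups did not overlap in either chamber. The atrial call was lost without V119, V123, V327 or V334 (edgeR adjusted P from 0.0582 to 0.0943), and without V119 the ventricular value, -0.56, was under the fold change limit. The median of the list was 0.02 in atria and -0.06 in ventricles.

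Of 10 other channel genes whose proteins KCNE subunits can bind, 2 of 10 tested were higher in CUG960 atria (Kcna1 and Hcn4) and 1 of 9 tested was higher in CUG960 ventricles (Kcna4). Kcna4, the Kv1.4 pore of the slow transient outward current, had 0.904 CPM, 1.70 CPM and 1.09 CPM in control and 8.57 CPM, 7.50 CPM and 6.60 CPM in CUG960 ventricles (log2 fold change 2.62, SE 0.22, edgeR adjusted P = 0.000206). Kcna1, the Kv1.1 pore, had 1.303 CPM, 1.45 CPM and 1.83 CPM in control and 3.48 CPM, 4.84 CPM and 6.12 CPM in CUG960 atria (log2 fold change 1.65, SE 0.22, adjusted P = 0.00302). Hcn4, a pacemaker channel gene, had 2.16 CPM, 1.66 CPM and 0.644 CPM in control and 8.12 CPM, 8.31 CPM and 9.71 CPM in CUG960 atria (log2 fold change 2.55, SE 0.36, edgeR adjusted P = 0.00361). None of these 3 overlapped between genotypes in the chamber named. The median of the list was 0.46 in atria and -0.15 in ventricles.

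**Figure D5:**
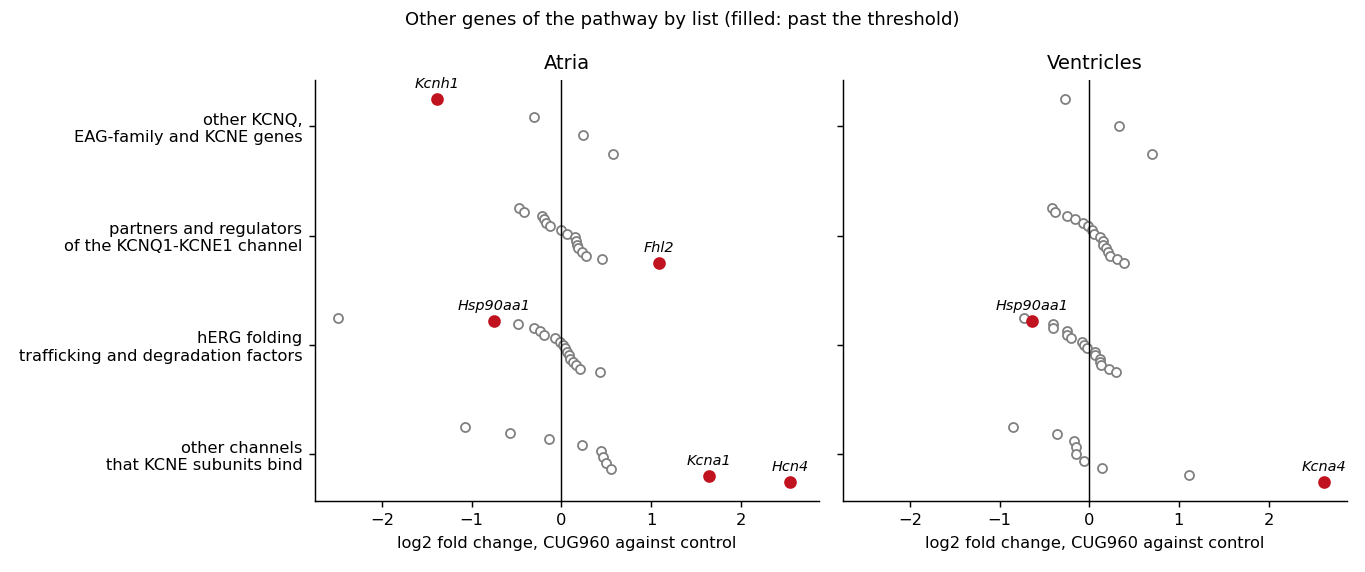
Log2 fold change of CUG960 against control (horizontal axes, edgeR, 3 mice per group) of each tested gene of the 4 pathway lists in atria (left) and ventricles (right); filled named points passed the threshold. Most genes of the 4 lists lie near 0, and Kcna4 in ventricles and Hcn4 in atria are the farthest to the right.

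Other measures moved with the groups. The share of mitochondrial counts was 19.6 to 20.5% in control and 15.3 to 18.4% in CUG960 ventricles, and 11.8 to 12.2% in control and 10.9 to 12% in CUG960 atria. Depth was lower in every CUG960 atrium (at most 134863462 counts) than in every control atrium (at least 136770774), and higher in every CUG960 ventricle (at least 140987828) than in every control ventricle (at most 133480610). Among 86 marker genes of 11 cell types, 11 of 78 tested were called in atria (14.1%, against 5.49% of all genes) and 10 of 76 in ventricles (13.2%, against 4.75% of all genes). The marker lists were chosen with earlier results of these data known, so these shares do not show an excess among markers. In atria the cardiomyocyte marker Gja5 and the endothelial markers Pecam1 and Tek were among those lower, and Hcn4 and Vsnl1 of the conduction list were higher. Tek fell under the fold change limit without V119, V327 or V333. The other calls in atria were Hey2 of the ventricular list, Postn of the fibroblast list and Tnnt3, Tnni2 and Ckm of the skeletal muscle list, all lower, and Tagln of the smooth muscle list, higher, of which Hey2, Tnni2, Ckm and Tagln lost their calls without 1 mouse or another. The smooth muscle and pericyte list had a median log2 fold change of -0.30 in atria, where 9 of its 10 markers were not called. The calls in ventricles included Bmp10, Kcnv2, Myh11, Tagln and the adipocyte markers Plin1, Cfd and Retn, which were lower, and Nppa and Npr3, which were higher, and of these Myh11, Tagln, Retn and Nppa lost their calls without 1 mouse or another and Plin1 lost its call when all 12 libraries were fitted together (edgeR adjusted P = 0.0579), as did Vsnl1 in atria (adjusted P = 0.0978). No macrophage or erythroid marker was called in either chamber, although the erythroid list had a median log2 fold change of -1.71 in atria, where the control V334 was high, and of -0.48 in ventricles. The sum of the 9 conduction markers was 72.1 to 80.1 CPM in control and 79.5 to 89.1 CPM in CUG960 atria, which overlapped, and none of the 9 was at 3 counts or fewer throughout. Smoc2, which led the sum, had 40.3 to 50.6 CPM in control and 36.7 to 46.4 CPM in CUG960 atria. The conduction list had a median log2 fold change of -0.14 in atria, and 6 of its 8 tested markers were not called. The sum of the 8 endothelial markers was 1074 to 1360 CPM in control and 907.8 to 1054 CPM in CUG960 atria, and 758.1 to 917.5 and 637.4 to 678.3 CPM in ventricles, led by Npr3 in every atrium and by Kdr or Cdh5 in every ventricle. The neuronal genes Chat and Snap25 had 3 counts or fewer in every library. The atrial cardiomyocyte markers summed to more in the CUG960 ventricles V120 (291.7 CPM) and V123 (376.5 CPM) than in V119 (148.8 CPM) and the controls (141.9 to 221.2 CPM). Nppa alone was 224.4 CPM of the sum in V120 and 151.5 CPM in V123. The part of depth, mitochondrial share and these cell types in the channel gene values was not tested.

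The genes with the most similar pattern over the 12 libraries were found by Pearson correlation of log2 CPM, over the 13111 (Kcnq1 and Kcnh2) or 13112 (Kcne1) other genes that averaged 1 CPM or more. They included Wasf1 (r = 0.987) and Erbb2 (0.985) for Kcnq1, Pdlim4 (0.992), Col13a1 (0.988) and Trim11 (0.988) for Kcnh2, and Stn1 (0.985), Lsmem1 (0.983) and Fbxo25 (0.983) for Kcne1. All 12 libraries share the same chamber and genotype groups, so these values describe a shared group pattern. Pdlim4, for example, had 50.8 CPM in control atria, 67.1 in CUG960 atria, 10.4 in control ventricles and 17.4 in CUG960 ventricles, the order that Kcnh2 showed. Lsmem1 followed the order of Kcne1, with 14.7, 21.3, 35.3 and 54.4 CPM.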

How the data were processed

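Per the labels and the methods of the study, paired-end reads of poly(A)-selected stranded libraries were aligned to GRCm38, and the authors deposited expected counts per gene from RSEM 1.3.1, 1 column per library. The values were whole numbers, were not scaled for library size, and needed no rounding. Counts were tested with edgeR 4.0.16 in R 4.3.3 (filterByExpr, TMM, glmQLFit and glmQLFTest, Benjamini-Hochberg adjustment). Each comparison was fitted on its own 6 libraries, the interaction on all 12 at an adjusted P under 0.05 without a fold change limit. Standard errors come from those fits. DESeq2 1.42.0, other scalings and filters, other fold change limits, a shared fit and leaving out each mouse were alternatives. The procedure was checked on simulated data. No 2 replicate libraries agreed within sampling noise (chi-square over its degrees of freedom between 36.8 and 108), and each was counted as a sample of its own. Intervals and floors cover counting error only.

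Lengths are unions of exons in GENCODE M21. Promoter windows are from RefSeq (GRCm38.p6). Named genes were the 9 channel genes, the called genes of 4 pathway lists, the called and most abundant genes of 11 marker lists, and the 3 genes most like Kcnq1, Kcnh2 and Kcne1. Some genes that this rule chose are not reported here. The channel genes and lists were chosen with earlier results of these data known.

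Atria and ventricles came from the same mice, which pairs their libraries, and the main fits did not use this pairing. Deviations from the group means correlated at r from 0.0302 to 0.135 for libraries from 1 mouse and at r from -0.141 to 0.0536 for libraries from different mice.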

Additional observations from a re-analysis of the deposited data

Results flagged for a closer look

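For 9 genes of the pathway and marker lists the CUG960 change differed between chambers by the interaction test (edgeR, adjusted over all genes tested). None was one of the 9 delayed rectifier genes. Values are the log2 change in ventricles minus that in atria.

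Among the channel and partner genes the difference was 2.12 for Kcna4 (adjusted P = 0.00208), -2.51 for Kcna1 (adjusted P = 0.00695), -0.94 for Fhl2 (adjusted P = 0.00226) and -0.62 for Kcnd2, a pore gene of the fast transient outward current (adjusted P = 0.0379). Kcnd2 lost its call without V119, V120, V327, V333 or V334, at adjusted P from 0.0774 to 0.194, and Kcna1 without V120 (adjusted P = 0.0559).

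Among the marker genes it was 1.72 for Nppa (adjusted P = 0.0494), -4.10 for Bmp10 (adjusted P = 0.00208), -1.67 for Kcnv2 (adjusted P = 0.00394), -1.85 for Tagln (adjusted P = 0.0445) and 0.75 for Npr3 (adjusted P = 0.0293). Nppa lost its call without V120, V123, V327 or V333 (adjusted P from 0.154 to 0.239), Tagln without V119, V123, V333 or V334 (from 0.131 to 0.169) and Npr3 without V119, V120, V123, V327 or V333 (from 0.077 to 0.136). Kcnv2, a silent subunit of Kv2 channels, had 18.4 CPM, 21.4 CPM and 22.9 CPM in control and 3.70 CPM, 5.26 CPM and 4.397 CPM in CUG960 ventricles.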

How the results depend on the processing

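Over all alternatives run, the values of single channel genes kept their direction and side of the threshold 471 times, lost a call 23 times, gained one 4 times and reversed 11 times. The reversals were all of uncalled values without 1 mouse: between -0.076 and 0.215 for Kcne3 in atria, -0.04 and 0.437 for Kcnq5 and -0.152 and 0.578 for Kcnh7 in ventricles, -0.658 and 0.119 for Kcne3 between CUG960 chambers, and for the interaction -0.14 and 0.303 for Kcnq5, -0.36 and 0.245 for Kcne4 and -0.181 and 0.429 for Kcne1. Without a fold change limit 2573 (atria), 1680 (ventricles), 9726 (control chambers) and 9517 (CUG960 chambers) genes passed, and with a log2 limit of 1.5 the numbers were 216, 199, 2233 and 2200, with 1 channel gene in atria (Kcnh6) and 3 between control chambers. In ventricles 2 channel genes were called when all 12 libraries were fitted together and 3 without a fold change limit. The interaction gave 253 genes, 652 with DESeq2 and 74 to 131 without 1 mouse. With the mouse as a replicate block, 6113 genes were called between control chambers and 5899 between CUG960 chambers, and the block changed no call of a channel gene. The causes were not tested. With the longest coding transcript as length, 33 of 68 levels and ratios moved by more than 1 SD. Depth limits Kcne1, Kcne3, Kcnh6 and Kcnq5 in atria, with 12 to 53 counts per library except Kcnh6 in CUG960. In ventricles it limits Kcnh6, with 5 to 10 counts per library in controls and 20 to 33 in CUG960. Counts there were also low for Kcne3 (20 to 44), Kcnq5 (33 to 81) and Kcnh7 (39 to 95).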
